A study of Mus musculus with 4 samples.

Results

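The epidermal connexins examined here were 4 genes, Gja1 (connexin 43), Gjb2 (connexin 26), Gjb5 (connexin 31.1) and Gjb6 (connexin 30). Every probe set that the platform annotation assigned to 1 of these symbols was taken, which gave 9 probe sets of 45037, and 4 genes of the 18193 named on the array. Gja1 was read by 6 probe sets and Gjb2, Gjb5 and Gjb6 by 1 each. All 9 passed the filter on dim probe sets, so that no member was left out of the test.

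Expression was measured on 4 arrays of basal cells sorted from mouse tail epidermis as alpha6 integrin-high and CD34-negative. CD-1 mice carried a YFP reporter (RosaYFP) and a tamoxifen-inducible Cre recombinase, driven by the keratin 14 promoter in K14CREER/RosaYFP (2 arrays) and by the involucrin promoter in InvCREER/RosaYFP (2 arrays). Both lines were on the same background, and only YFP-positive living cells were collected. K14CREER mice received 1 ug of tamoxifen and InvCREER mice 10 ug, so that Cre line and dose cannot be told apart, and the time to sacrifice is 3.5 days in the sample titles and 4 days in the treatment protocol. Nothing in the labels ties the 2 arrays of a line to separate animals. The p-values here cover only the spread between arrays, which may be technical in K14CREER. InvCREER 1 and 2 differed in Xist (12.56 against 8.26) and Eif2s3y (7.49 against 10.25), unlike repeats of the same RNA. Keratin 14 is a keratin of the basal layer and involucrin a protein of the cornified envelope, so that the comparison asks how basal cells marked by a differentiation promoter differ from basal cells marked by a basal promoter.

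Connexins are membrane proteins with 4 transmembrane segments. They assemble as hexamers (connexons) that dock between neighbouring cells to form gap junctions, through which ions and small molecules pass. Keratinocytes use several connexins, whose amounts change between the basal and upper layers. Connexin 43 is the widespread gap junction protein of the epidermis, whereas connexins 26 and 30 are known for skin disease and deafness when mutated and for their rise in wounded or thickened epidermis. Connexin 31.1 is a keratinocyte connexin of stratified epithelia.

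The labelled cell type was checked on its markers. Krt14, a basal keratin, had log2 values of 14.14 and 14.17 on the K14CREER arrays and 13.82 and 13.85 on the InvCREER arrays, at the upper end of the scale, and Itga6, the integrin of the gate, was at 11.62 to 12.41 over the 4 arrays. Cd34 and Ivl, the involucrin gene, lay below the filter of 5.42 by their mean over the 4 arrays, but not on every array. Cd34, the surface marker absent from the gate, was at 6.07 on K14CREER 1 and at 3.59 to 3.88 on the others, and Ivl was at 6.23 on K14CREER 2 and at 4.58 to 5.06 on the others. The InvCREER 1 array stood apart from the others. It had the highest Xist (12.56 against 5.44 to 8.26), the lowest Y-linked Eif2s3y (7.49 against 9.89 to 10.25), and the largest log2 difference between 3' and 5' Actb control probe sets (1.24 against 0.68 to 0.94), a sign of RNA quality. The connexin genes and Cav1 are therefore given with and without InvCREER 1. The labels give no sex. Leaving out InvCREER 1 does not remove every difference in Xist, which was at 8.26 on InvCREER 2 against 7.25 and 5.44 in K14CREER. Eif2s3y on InvCREER 2 (10.25) lay within the K14CREER range.

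Of the 4 connexin genes, Gjb2 rose in InvCREER and the other 3 did not pass the test. Gjb2 was 2.92-fold and Gjb5 2.12-fold higher in InvCREER, with no overlap between the lines, while Gja1 differed by 1.17-fold and the Gjb6 levels of both lines overlapped. A probe set was called at a Benjamini-Hochberg adjusted p under 0.05 by limma. Over all tested probe sets 0.959% were called and 0.684% were called as higher in InvCREER, and with 1 probe set per gene 0.958% of 11270 genes were called as higher. In 3 of the 4 connexin genes the 2 InvCREER arrays lay above both K14CREER arrays, against 21.3% of the 11270 genes. The median difference of the 4 genes was 0.66, against -0.01 for the 11270 genes. The count of called connexin genes stayed at 1 of 4 without InvCREER 1 or InvCREER 2 and was 0 of 4 without K14CREER 1, without K14CREER 2 or without the variance trend. It was 2 of 4, Gjb2 and Gjb5, under the stricter filter, with 1 probe set per gene, with the mean of the probe sets of a gene and with the replicate number as a block. With 4 members these are descriptions, and with 2 arrays per line the smallest 2-sided p of an exact permutation test is 0.333.

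**Figure D1:**
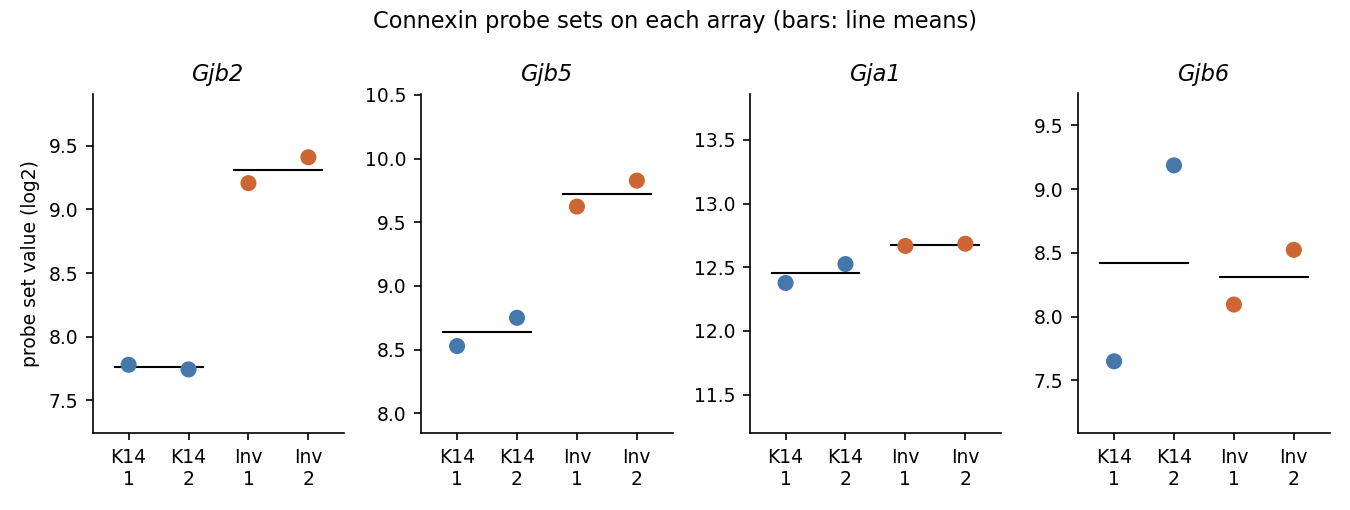
Log2 value of the brightest probe set of each connexin gene on the 4 arrays, with a bar at the mean of each line (n = 2); every panel spans the same number of log2 units. Gjb2 and Gjb5 sit higher on both InvCREER arrays, Gja1 differs little, and the Gjb6 values of InvCREER lie between the K14CREER values of 7.65 and 9.19.

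Gjb2 encodes connexin 26. Its probe set was at 7.78 and 7.74 on K14CREER 1 and 2 and at 9.21 and 9.41 on InvCREER 1 and 2 in log2 units. The K14CREER arrays were nearly equal, and the gap between the higher of them and the lower InvCREER array was 1.43. K14CREER averaged 7.76 ± 0.03 and InvCREER 9.31 ± 0.14 (SD, n = 2 each). The difference was 1.55 (SE 0.21, 95% confidence interval 1.03 to 2.06, adjusted p = 0.0384 by limma), which ranked 294th of 22519 probe sets from the most increased. Without InvCREER 1 it was 1.65. The call was lost without K14CREER 1 (adjusted p = 0.127 by limma), without K14CREER 2 (adjusted p = 0.109 by limma) and without the mean-variance trend of the fit (adjusted p = 0.0524 by limma), at differences of 1.56, 1.53 and 1.55.

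Gjb5 encodes connexin 31.1. It was at 8.53 and 8.75 on the K14CREER arrays and at 9.62 and 9.83 on the InvCREER arrays. Both InvCREER arrays lay above both K14CREER arrays, with a gap of 0.87. K14CREER averaged 8.64 ± 0.16 and InvCREER 9.73 ± 0.14 (SD, n = 2 each), a difference of 1.09 (SE 0.21, 95% confidence interval 0.59 to 1.59, adjusted p = 0.0760 by limma) that ranked 599th of 22519. It therefore missed the threshold over all probe sets. Without InvCREER 1 the difference was 1.19. Gjb5 was called when probe sets under the 75th percentile were left out (adjusted p = 0.0374 by limma), with 1 probe set per gene (adjusted p = 0.0325 by limma), with the mean of the probe sets of a gene (adjusted p = 0.0356 by limma) and with the replicate block (adjusted p = 0.0171 by limma). In these 4 settings the calls over all features rose as well, from 216 to 405, 551, 450 and 1390.

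Markers of the spinous layer were higher on the same arrays as Gjb2 and Gjb5. All 7 tested spinous markers (Krt1, Krt10, Dsg1a, Dsg1b, Dsc1, Sbsn and Grhl3) were called as higher in InvCREER, against 0.958% of the 11270 genes. The spinous list means were 9.86 and 9.88 on the K14CREER arrays and 11.66 and 11.88 on the InvCREER arrays. All 8 basal markers were lower in InvCREER with no overlap between the lines. Of them 2 were called as lower, Krt15 and Lamb3, against 0.373% of the 11270 genes. Of the 11270 genes 45.3% had no overlap, counting both directions, and 21.3% had no overlap and were higher in InvCREER. The basal list means were 12.60 and 12.43 in K14CREER and 11.72 and 11.55 in InvCREER. In sorted bulk samples a larger share of cells that express a gene and more of its RNA per cell cannot be told apart. Sebocyte markers were also higher in InvCREER. They averaged 7.40 and 6.82 for the K14CREER arrays, against 10.52 for InvCREER 1 and 8.81 for InvCREER 2, with 1 of 9 tested markers called as higher, Dgat2. Langerhans cell and myeloid markers had means of 5.67 and 5.37 in K14CREER and 7.91 and 6.40 in InvCREER. Of 7 tested 6 were higher with no overlap and 0 were called. In the sebocyte list Mc5r (5.04 and 4.75 in K14CREER) and Pparg (5.09 and 4.60) entered the test only through InvCREER. In the Langerhans cell and myeloid list the same held for Cd207 (5.16 and 4.99 in K14CREER) and Ctss (4.57 and 4.10). The means and counts of both lists include such genes, and are no test of a rise. Ptprc, Tyrobp and Fcer1g lay below the filter by their mean over the 4 arrays, but Tyrobp and Fcer1g were at 6.19 and 5.50 on InvCREER 1. The sebocyte list and the Langerhans cell and myeloid list were highest on InvCREER 1. Gjb2 and Gjb5 were each 0.20 lower on InvCREER 1 than on InvCREER 2, and differed by 0.04 and 0.22 between the K14CREER arrays. Of 10 dermal fibroblast markers 5 were tested, with 1 called as lower, Sparc. Their means were 9.04 and 8.10 in K14CREER and 7.34 and 7.22 in InvCREER. Of the 5, 3 were lower with no overlap (Sparc, Dcn and Thy1). Vim (-0.07) and Col1a2 (-0.33) overlapped between the lines on their brightest probe sets. Col1a1, Col3a1, Pdgfra and Lum lay below the filter by their mean over the 4 arrays, but Col3a1 was at 6.12 on K14CREER 1. The part of any of these cell types in the connexin values was not tested.

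Promoters are shown for the pair with the largest differences, Gjb2 and Gjb5, and for Gja1, which differed little. They are RefSeq sequences of GRCm38.p6, from 250 bases before to 50 after the gene start, printed 5' to 3' on the gene's strand. All 4 members matched the promoter table. Gjb2 lies at chr14:57104653-57104952 on the minus strand, Gjb5 at chr4:127358115-127358414 on the minus strand, and Gja1 at chr10:56377050-56377349 on the plus strand. Capitals mark matches, on either strand, to an AP-1 site (TGANTCA), a GC box (GGGCGG), an AP-2 site (GCCNNNGGC), a grainyhead site (AACCGGTT) or a TATA box (TATAAA).
Gjb2: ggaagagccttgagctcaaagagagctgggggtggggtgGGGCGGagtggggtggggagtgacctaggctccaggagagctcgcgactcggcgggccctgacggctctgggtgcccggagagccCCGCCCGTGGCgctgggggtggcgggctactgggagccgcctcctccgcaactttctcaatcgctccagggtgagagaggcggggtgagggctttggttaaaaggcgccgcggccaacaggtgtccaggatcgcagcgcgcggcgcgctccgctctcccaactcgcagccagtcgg
Gjb5: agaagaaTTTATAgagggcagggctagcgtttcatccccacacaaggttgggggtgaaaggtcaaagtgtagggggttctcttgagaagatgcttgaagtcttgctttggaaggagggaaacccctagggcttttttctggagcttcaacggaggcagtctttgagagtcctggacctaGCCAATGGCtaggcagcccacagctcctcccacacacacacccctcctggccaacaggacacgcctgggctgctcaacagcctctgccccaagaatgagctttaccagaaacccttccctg
Gja1: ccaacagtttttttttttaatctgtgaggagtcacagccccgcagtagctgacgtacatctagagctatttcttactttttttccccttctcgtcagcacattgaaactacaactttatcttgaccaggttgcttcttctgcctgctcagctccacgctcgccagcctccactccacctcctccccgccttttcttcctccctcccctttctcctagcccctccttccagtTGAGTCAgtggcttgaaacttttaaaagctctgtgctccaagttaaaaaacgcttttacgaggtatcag
The Gjb2 window held 2 GC boxes, at -211 to -206 and -126 to -121, and an AP-2 match at -124 to -116 that overlaps the second of them. The Gjb5 window held an AP-2 match at -71 to -63 and TATAAA, on the opposite strand, at -243 to -238. The Gja1 window held an AP-1 match at -19 to -13. The Gjb6 window (chr14:57133562-57133861, minus strand) had none of these letters, and no window of the 4 had a grainyhead match. Of 32851 promoter windows of the same length 35.7% held a GC box, 16.6% an AP-2 match, 7.81% an AP-1 match, 13.6% TATAAA and 0.146% a grainyhead match. An AP-2 match was thus the motif present in both the Gjb2 and the Gjb5 window, and it is common among promoters. Gjb2 had a GC content of 70.0% and 27 CpG dinucleotides, against 54.3% and 3 in Gjb5, 47.7% and 8 in Gja1, and 57.3% and 6 in Gjb6. A match is a description of these letters and shows neither binding nor use of the site.

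Gja1 encodes connexin 43. On its brightest probe set (1437992_x_at) it was at 12.38 and 12.53 on the K14CREER arrays and at 12.67 and 12.68 in InvCREER. Both InvCREER arrays were higher, by a gap of 0.14 that was no larger than the 0.15 between the K14CREER arrays. K14CREER averaged 12.45 ± 0.10 and InvCREER 12.68 ± 0.01 (SD, n = 2 each), a difference of 0.22 (95% confidence interval -0.02 to 0.47, adjusted p = 0.415 by limma), and 0.23 without InvCREER 1.

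The other 5 Gja1 probe sets read the same gene and are not independent of the first. The probe sets 1438945_x_at, 1438650_x_at and 1415800_at, at 11.46 to 12.37 over the 4 arrays, differed by 0.34, 0.28 and 0.26. The largest of these, on 1438945_x_at, came from 11.61 and 11.69 in K14CREER and 11.96 and 12.01 in InvCREER (95% confidence interval 0.06 to 0.62, adjusted p = 0.266 by limma). On 1415800_at the lines overlapped, with 11.84 and 12.17 in K14CREER against 12.14 and 12.37 in InvCREER. The 4 bright Gja1 probe sets thus had the same sign, with intervals that reach no further than 0.63.

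The 2 dimmer Gja1 probe sets went another way. The probe set 1415801_at was at 7.25 and 8.47 on the K14CREER arrays and at 6.95 and 8.65 in InvCREER, a difference of -0.07 (95% confidence interval -1.58 to 1.45, adjusted p = 0.987 by limma). It was lower on the arrays numbered 1 than on those numbered 2, by 1.22 in K14CREER and by 1.70 in InvCREER, whereas the difference between the lines was small. The 3' minus 5' Actb value was higher on the arrays numbered 1 (0.94 and 1.24) than on those numbered 2 (0.68 and 0.77), and its part in this probe set's values was not tested. The probe set 1438973_x_at, at 5.79 to 6.28 over the 4 arrays, lay close to the filter of 5.42 and differed by -0.20 (adjusted p = 0.836 by limma). As the mean of its 6 probe sets Gja1 differed by 0.14 (adjusted p = 0.838 by limma).

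**Figure D2:**
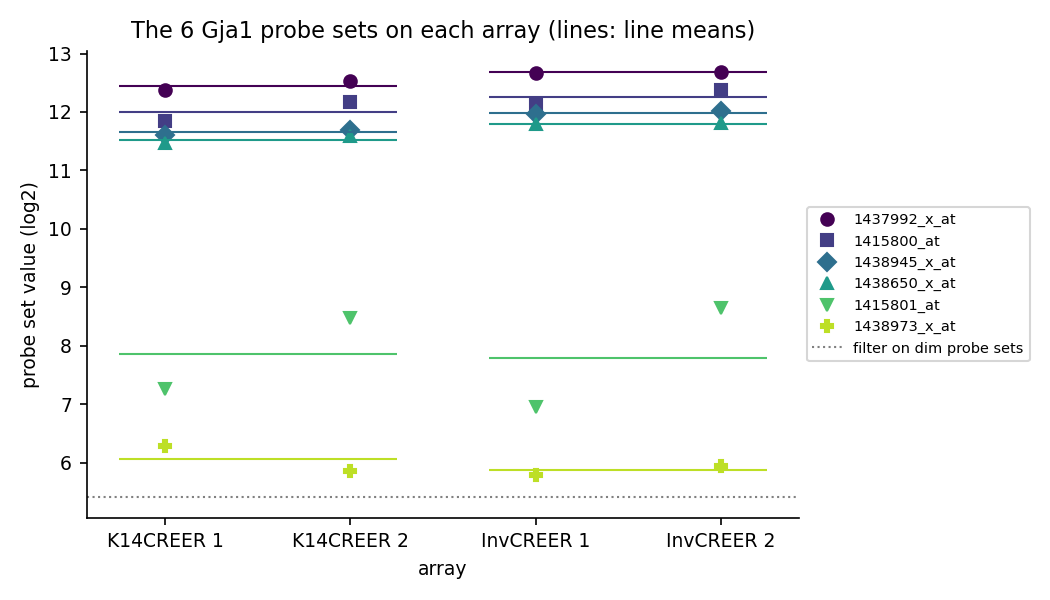
Log2 values of the 6 Gja1 probe sets on the 4 arrays, with a horizontal line at the mean of each Cre line (n = 2) and a dotted line at the filter of 5.42. The 4 bright probe sets shift slightly up in InvCREER, while 1415801_at separates arrays numbered 1 from arrays numbered 2.

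Gjb6 encodes connexin 30, the closest relative of connexin 26. It was at 7.65 and 9.19 on the K14CREER arrays and at 8.09 and 8.52 on the InvCREER arrays. Both InvCREER values lay between the K14CREER values, so that the lines overlapped fully. K14CREER averaged 8.42 ± 1.09 and InvCREER 8.31 ± 0.30 (SD, n = 2 each), a difference of -0.11 (95% confidence interval -1.30 to 1.09, adjusted p = 0.969 by limma). The interval leaves room for a change of 2-fold in either direction. The sign rested on single arrays, with 0.66 without K14CREER 2, 0.11 without InvCREER 1, -0.88 without K14CREER 1 and -0.32 without InvCREER 2. Like the Gja1 probe set 1415801_at, Gjb6 was lower on the arrays numbered 1, by 1.54 in K14CREER and by 0.43 in InvCREER.

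Gjb2 and Gjb6 are next to each other on mouse chromosome 14, with their starts 28909 bp apart in GRCm38.p6 and no other protein-coding gene between them. Their values differed in pattern, since Gjb2 varied by 0.04 between the K14CREER arrays and Gjb6 by 1.54. The difference between the responses of these genes was not tested. Gja3 (connexin 46), a connexin known from the lens, is the next protein-coding gene on the other side of Gjb2. Its tested probe set measured 4.87 and 6.76 on the K14CREER arrays and 5.80 and 5.99 on the InvCREER arrays (adjusted p = 0.981 by limma), and its other probe set lay below the filter.

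**Figure D3:**
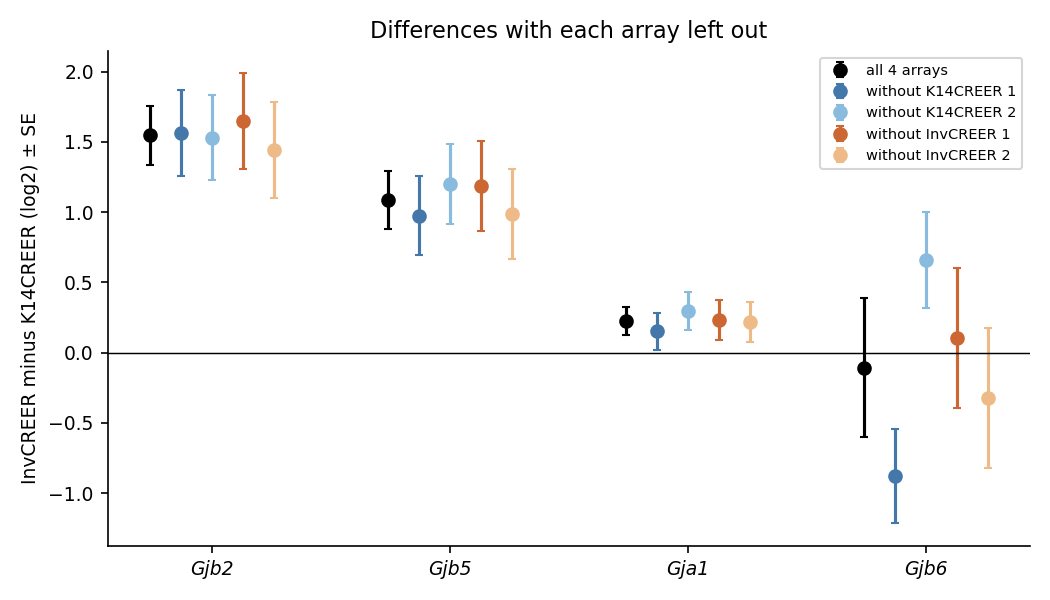
Difference InvCREER minus K14CREER in log2 units (± moderated SE) for the brightest probe set of each connexin gene, with all 4 arrays and with each array left out. Gjb2 stays between 1.44 and 1.65 and Gjb5 between 0.97 and 1.20, while Gjb6 runs from -0.88 to 0.66.

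The rest of the connexin family was dim in these cells. Of 16 further connexin genes looked for, 10 had a named probe set, and Gja3 was the 1 tested, while 9 lay below the filter with every named probe set. Among these were Gja4 and Gja5, connexins of blood vessel endothelium, at 4.75 to 5.25 and 4.04 to 4.22. Gjb1 (connexin 32), the liver connexin, was at 4.46 to 4.72 on the brighter of its 2 probe sets, and Gjc1 (connexin 45) at 4.73 to 5.32. The remaining 6 genes were not analysed here.

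Pannexins form channels in single membranes and do not usually dock between cells. Panx1, the widespread pannexin, measured 9.01 and 8.83 for K14CREER against 8.86 and 8.99 for InvCREER, a difference of 0.00 (adjusted p = 0.998 by limma). Panx3, a pannexin of bone, cartilage and skin, was at 4.07 and 3.48 on the K14CREER arrays and at 8.64 and 6.40 in InvCREER on its brightest probe set. The lines did not overlap, and the InvCREER arrays differed by 2.24 between themselves. Both K14CREER values lay under the filter of 5.42, and the probe set entered the test only through its InvCREER values, so that no test or fold is given for it. The other 2 Panx3 probe sets lay below the filter on average, with differences of 0.39 and 0.21, so that the higher InvCREER level rests on 1 probe set. Panx2 was below the filter.

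Proteins that bind, traffic or degrade connexins were read from a list of 20 genes, of which 17 were named and 15 tested. None was called as higher, 1 was called as lower and 14 did not pass the test, against 0.958% and 0.373% of the 11270 genes called in each direction. The median difference of the list was -0.03, against -0.01 for all genes.

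Cav1 (caveolin-1, the coat protein of caveolae, which binds connexin 43) was the gene that fell. It was at 12.09 on both K14CREER arrays and at 10.82 and 10.79 on the InvCREER arrays, a 2.44-fold lower level. The lines were far apart beside the spread within each, with a difference of -1.29 (SE 0.12, adjusted p = 0.0148 by limma). Without InvCREER 1 it was -1.30, with the spread then taken from the K14CREER arrays alone. The call was lost without K14CREER 1 (adjusted p = 0.0658 by limma), without K14CREER 2 (adjusted p = 0.0574 by limma) and without the variance trend (adjusted p = 0.0693 by limma).

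Tjp1 (ZO-1, the scaffold that binds the tail of connexin 43) measured 9.54 and 9.33 on the K14CREER arrays and 10.19 and 10.20 on the InvCREER arrays, a difference of 0.76 (adjusted p = 0.126 by limma). Cdh1 (E-cadherin, whose adhesion precedes gap junction assembly) measured 11.64 and 11.56 on the K14CREER arrays and 12.19 and 11.87 on the InvCREER arrays (0.43, adjusted p = 0.254 by limma). Erp29, a chaperone of the endoplasmic reticulum that holds connexin 43 in its monomeric form, measured 9.44 and 9.43 on the K14CREER arrays and 9.95 and 10.10 on the InvCREER arrays (0.59, adjusted p = 0.208 by limma). None of these 3 passed the test. Over the 15 tested genes 4 were higher and 3 lower with no overlap between the lines, near the share of 45.3% of all genes that had no overlap in either direction. Nedd4, a ubiquitin ligase that acts on connexin 43, was named after its values were seen. It had lower means in InvCREER on all 3 of its tested probe sets, by differences of -0.42, -0.60 and -0.60, of which the last 2 did not overlap and none was called (adjusted p 0.119 to 0.472 by limma). Cnst (consortin, which helps connexins reach the cell surface) measured 9.12 and 8.98 on the K14CREER arrays and 8.85 and 8.48 on the InvCREER arrays (-0.39, adjusted p = 0.554 by limma). Ccn3, a matricellular protein that binds connexin 43, lay below the filter.

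**Figure D4:**
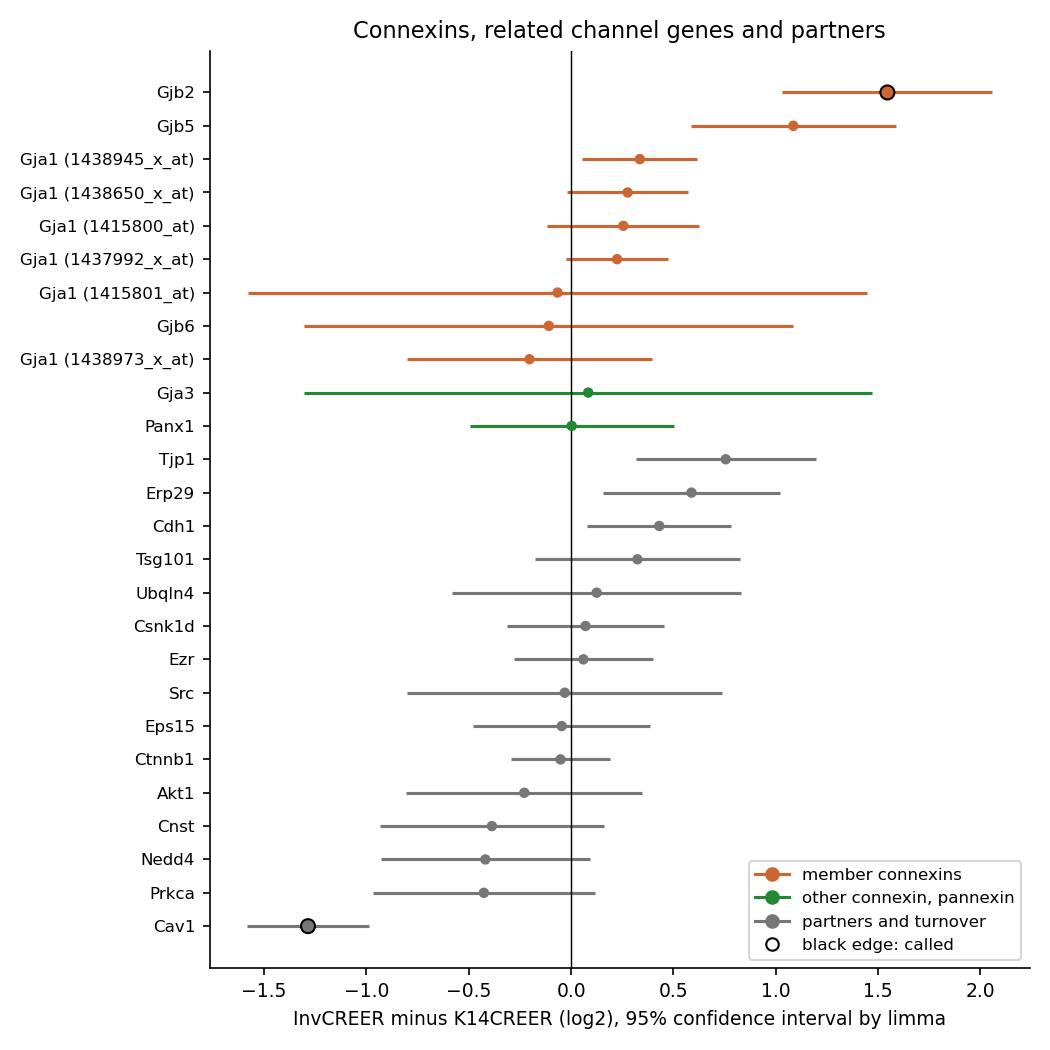
Difference InvCREER minus K14CREER in log2 units with its 95% confidence interval by limma (n = 2 per line), for the 9 connexin probe sets, the other tested connexin (Gja3), Panx1, and the 15 tested partner genes (brightest probe set of each). Black edges mark the called genes, Gjb2 at 1.55 and Cav1 at -1.29.

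The genes with the most similar profile were named by the root mean square difference between profiles over the 4 arrays, each centred on its mean, among 11265 genes that are no connexins. For Gjb2 these were Slc5a9, a sodium-coupled sugar transporter, at 0.05, Paqr5, a membrane progestin receptor, at 0.06, and Tm7sf2, a sterol reductase of cholesterol synthesis, at 0.08, against a median of 0.80 for all genes. Slc5a9 measured 6.23 and 6.21 on the K14CREER arrays and 7.56 and 7.77 on the InvCREER arrays. For Gjb5 they were 6430590A07Rik at 0.05, Tmem154 at 0.06 and Pof1b, an actin-binding protein of epithelial junctions, at 0.06, against a median of 0.58. Both K14CREER values of 6430590A07Rik (5.260 and 5.417) lay under the filter of 5.419. It was a candidate only through its InvCREER values, which favours such a match. Pof1b measured 11.55 and 11.78 on the K14CREER arrays and 12.56 and 12.71 on the InvCREER arrays. For Gja1 they were Ccnt2, Rpf2 and Ddx39a at 0.01 each, against a median of 0.23. For Gjb6 they were 2310075K07Rik at 0.06, Zfp229 at 0.07 and Prkcb, a protein kinase C, at 0.13, against a median of 0.59. With 4 arrays the measure describes these arrays alone.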

How the data were processed

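Per the labels' protocols, 100 ng of RNA from sorted cells was amplified for each array by in vitro transcription from the 3' end. Per the submitters' processing notes, the authors used RMA in Affymetrix Expression Console 1.1, and deposited log2 values. Because RMA equalises the arrays' distributions, differences in total RNA are not visible. Depth does not apply to arrays, and precision is limited by their number.

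Of 45101 probe sets 64 controls were set aside. Probe sets with a mean over the 4 arrays at or above the median of the rest, 5.42, were tested (22519). Genes were named from the platform annotation through Entrez numbers and RefSeq (GRCm38.p6), which also gave gene order: 34945 probe sets had 1 symbol, 932 several and 9160 none here. A gene is given by its brightest probe set (on average over the arrays), with the others beside it.

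InvCREER was compared with K14CREER by limma 3.58.1 in R 4.3.3 (lmFit, eBayes with trend, 2-sided, no block), with Benjamini-Hochberg adjustment over the 22519 probe sets. ± is SD and SE is the moderated standard error. Data were simulated for this comparison on the same 22519 probe sets, with 100 changed by 1 log2 unit and 100 by 2. Of these, 4% and 60% were recovered, and 5 of 69 calls were false. The real arrays gave 216 calls, so that these shares need not carry over to them.

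The genes, lists and tests were chosen with earlier results of these data known, and the motifs and the alternatives for Cav1 after the values were seen. Named genes were the 4 connexins, tested genes of the connexin and pannexin families with examples of the dim ones, called partner genes with Tjp1, Cdh1, Ccn3, Cnst and Erp29, 3 nearest profiles per connexin, and Krt14, Itga6, Cd34 and Ivl as checks. Alternatives changed the scaling, filter, threshold, variance model, replicate block, array weights, probe set kind and unit of testing, or left out 1 array, in which case the remaining array of that line takes the spread of the other line. Melanocyte, hair follicle and endothelial markers were read as well, with 0 of 3, 1 of 6 (Lgr6, lower) and 0 of 1 tested genes called. Protein sequences were not used here. Figures were drawn with matplotlib 3.10.9.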

Additional observations from a re-analysis of the deposited data

How the results depend on the processing

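The difference of Gja1 kept its sign in all 15 alternatives, from 0.14 to 0.30, and was called in none (adjusted p 0.235 to 0.838 by limma, at an unadjusted p of 0.0692 with all arrays). Gjb2 was higher in all 15, from 1.44 to 1.65, and was called in 12 (adjusted p 0.00989 to 0.127 by limma). Its call was lost without the variance trend (1.55, adjusted p = 0.0524 by limma) and without either K14CREER array, and each array left out gave 1.44 to 1.65. Gjb5 was higher in all 15, and 0.97 to 1.20 with each array left out (adjusted p over the alternatives 0.0171 to 0.255 by limma). It was called in 4, each at 1.09: the stricter filter, 1 probe set per gene, the mean of the probe sets of a gene (adjusted p = 0.0356 by limma) and the replicate block (adjusted p = 0.0171 by limma). Gjb6 changed sign with each of 2 arrays left out, to 0.66 without K14CREER 2 and 0.11 without InvCREER 1, over a range of -0.88 to 0.66. The number of calls over all features, 216 in the fit as reported, was 82 to 981 with each array left out, 122 without the variance trend, 405 at the stricter filter, 551 with 1 probe set per gene, 450 with the mean of the probe sets, 692 at an adjusted p under 0.10 and 1390 with the replicate block. The stricter filter and both changes of unit test fewer features (11260 to 11270), and the cause of the other shifts was not tested. Same-numbered arrays deviated together (r = 0.38 across probe sets, which are not independent), but with 2 pairs and no label for the number this does not establish a pairing. The block changed the call of Gjb5 and no other call of the connexins or Cav1. At 2 arrays per line a change near 2-fold was seldom called in the simulated data. A missed threshold does not show that levels are equal.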
